A study of Homo sapiens with 6 samples.

Results

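The proteasome genes of PANC-1 cells, an established human pancreatic cancer cell line, were compared between 3 libraries of untreated cells and 3 libraries of cells labelled as treated with extracellular vesicles (EVs) from cancer-associated fibroblasts, the activated fibroblasts of tumour stroma. Members were all rows of the count table whose gene name was PSM, a letter from A to G and a number, which excluded pseudogenes, antisense transcripts and interacting proteins. The rule found 46 genes among 32078 named genes, and 45 of them had enough counts to be tested. Poly(A) RNA was sequenced, and the design sets the vesicle-treated against the untreated cells. Group membership was read from titles and treatment labels, since the protocol text mentions vesicle treatment for the controls as well. The sources used here do not give the vesicle dose or the time.

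The 26S proteasome degrades proteins tagged with ubiquitin. Its 20S core is a barrel of alpha rings (PSMA) that gate entry and beta rings (PSMB) that hold the proteolytic sites, and its 19S cap recognises, deubiquitinates and unfolds substrates through a base with ATPases (PSMC) and a lid (most PSMD). Activators (PSME) can replace the cap, dedicated chaperones (PSMG and some PSMD) assemble the particle, and interferon-inducible beta subunits can take the place of the standard catalytic ones. The transcription factor NFE2L1 is known to raise proteasome genes together when proteasome activity is low, through antioxidant response elements.

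Promoters are shown because the members moved mostly in 1 direction and NFE2L1 is known to act at such elements. RefSeq promoters (GRCh38.p14) were matched for 40 of the 46 members by symbol. PSMA7, PSMB1, PSMB6, PSMB7, PSMD4 and PSMG3 had no entry. The 250 bases before each start were searched on both strands for TGACNNNGC, the core of the antioxidant response element, and for CCAAT. The printed sequences run 5′ to 3′ toward the start, and capitals mark matches to either motif. They are PSMA3, the member with the highest fold change (chr14:58244593-58244842, plus strand), PSMB3 (chr17:38752491-38752740, plus strand), PSMD12 (chr17:67366578-67366827, minus strand) and PSME1 (chr14:24135944-24136193, plus strand), the last 3 of which were called higher and hold the response element core, and PSMG4, the member called lower (chr6:3258697-3258946, plus strand).
PSMA3: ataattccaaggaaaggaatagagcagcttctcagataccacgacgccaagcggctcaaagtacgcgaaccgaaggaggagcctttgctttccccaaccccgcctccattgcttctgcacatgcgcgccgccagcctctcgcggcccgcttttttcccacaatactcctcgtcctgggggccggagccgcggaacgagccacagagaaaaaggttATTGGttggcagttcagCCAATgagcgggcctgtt
PSMB3: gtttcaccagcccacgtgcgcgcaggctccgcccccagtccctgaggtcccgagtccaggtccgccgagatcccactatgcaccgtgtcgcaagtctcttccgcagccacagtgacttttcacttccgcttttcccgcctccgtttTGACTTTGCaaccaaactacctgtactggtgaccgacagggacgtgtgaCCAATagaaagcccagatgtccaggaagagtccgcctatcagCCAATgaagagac
PSMD12: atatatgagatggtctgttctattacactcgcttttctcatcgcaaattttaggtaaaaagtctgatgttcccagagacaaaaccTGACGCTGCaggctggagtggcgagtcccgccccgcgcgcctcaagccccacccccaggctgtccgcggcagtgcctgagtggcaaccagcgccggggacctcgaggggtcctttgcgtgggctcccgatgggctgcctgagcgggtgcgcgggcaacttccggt
PSME1: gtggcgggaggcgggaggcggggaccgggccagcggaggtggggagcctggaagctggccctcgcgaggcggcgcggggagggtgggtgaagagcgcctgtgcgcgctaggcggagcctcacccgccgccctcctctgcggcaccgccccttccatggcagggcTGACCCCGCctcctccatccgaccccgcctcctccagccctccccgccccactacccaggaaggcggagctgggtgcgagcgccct
PSMG4: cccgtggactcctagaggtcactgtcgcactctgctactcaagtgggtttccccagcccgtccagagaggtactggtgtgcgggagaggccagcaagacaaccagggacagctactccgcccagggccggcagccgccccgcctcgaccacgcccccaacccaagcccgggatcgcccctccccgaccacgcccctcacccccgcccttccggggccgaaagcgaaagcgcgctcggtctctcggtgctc
The PSMA3 window holds CCAAT on both strands within its last 35 bases and no response element core. In the PSMB3 window the response element core begins 104 bases before the start and is followed by 2 CCAAT boxes. The core begins 165 bases before the start in PSMD12 and 86 bases before it in PSME1. The PSMG4 window holds neither motif. These windows were picked by call and motif, and no window of a member that was not called is printed. The counts below cover all matched members.

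The response element core was found for 13 of 40 members (32.5%) against 13.2% of the 27305 genes in the promoter table, counting a gene if any of its listed promoters held it. It was found for 7 of the 19 members that were higher and for 6 of the 19 that were not called. CCAAT was found for 18 of 40 members (45%) against 37% of all genes, and for 10 of the 19 higher and 7 of the 19 not called. These are counts of letters in a window and show no binding.

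Total counts per library were 21647493 to 27498709 over named genes. KRT8, KRT18, KRT19, VIM and SOX9, which are known from this line, were all detected, while EPCAM and CDH2 had 0 counts in all 6 libraries and KRT7 had 28 in all. These 3 markers therefore went against the label, and the identity of the line was not tested further. VIM (-0.37 ± 0.05), SOX9 (-0.42 ± 0.06) and KRT19 (-0.48 ± 0.06) fell with EVs, and KRT8 and KRT18 were not called. The 8 markers of the line summed to 7305 to 7899 CPM (counts scaled to the library total) in the controls and 6920 to 7502 CPM with EVs. Fibroblast markers, of which 9 of 10 were in the table, summed to 115 to 141 CPM in the controls and 197 to 216 CPM in the EV-labelled libraries. DCN, LUM, POSTN and THY1 were at 0, and most of the sum was COL1A2, at 114 against 186 CPM. Immune markers, of which 7 of 10 were in the table, summed to 4.51 to 5.74 CPM against 3.67 to 4.29 CPM. PTPRC was at 0, and most of the sum was CD8A, at 3.91 against 2.52 CPM, which was called lower (-0.63 ± 0.17). Endothelial markers overlapped at 4.46 to 5.47 CPM with KDR at 0, and most of their sum was CDH5, at 4.23 against 4.71 CPM. The part of other cells in the proteasome results was not tested. In bulk RNA, fewer cells of a type and less RNA per cell cannot be told apart.

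Proteasome members were more often higher than lower in the EV-labelled libraries, and by small amounts. Of 45 tested members, 22 were called higher and 1, PSMG4, lower at an adjusted p under 0.05 (edgeR quasi-likelihood test, Benjamini-Hochberg over all 14670 tested genes). This was 48.9% of tested members higher and 2.22% lower, against 20.2% higher and 20.7% lower among all tested genes. The median log2 fold change was 0.14 for members and -0.01 for all genes. The fitted value was above 0 for 38 of 45 members (49.0% of all genes). In 28 members every EV-labelled library was above every control, and in 2 every one was below, against 25.1% and 25.5% of all genes. Rises of called members ran from 11.9% (PSMB7) to 44.2% (PSMA3). With a 25% rise, or the equal fold downward, also required, 8 of 45 members were higher and 0 lower. Among all tested genes 11.5% were higher and 14.7% lower at that threshold. Members held 0.717%, 0.720% and 0.708% of the named-gene counts in the controls, against 0.798%, 0.808% and 0.787% with EVs, so their summed share did not overlap between the groups.

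**Figure D1:**
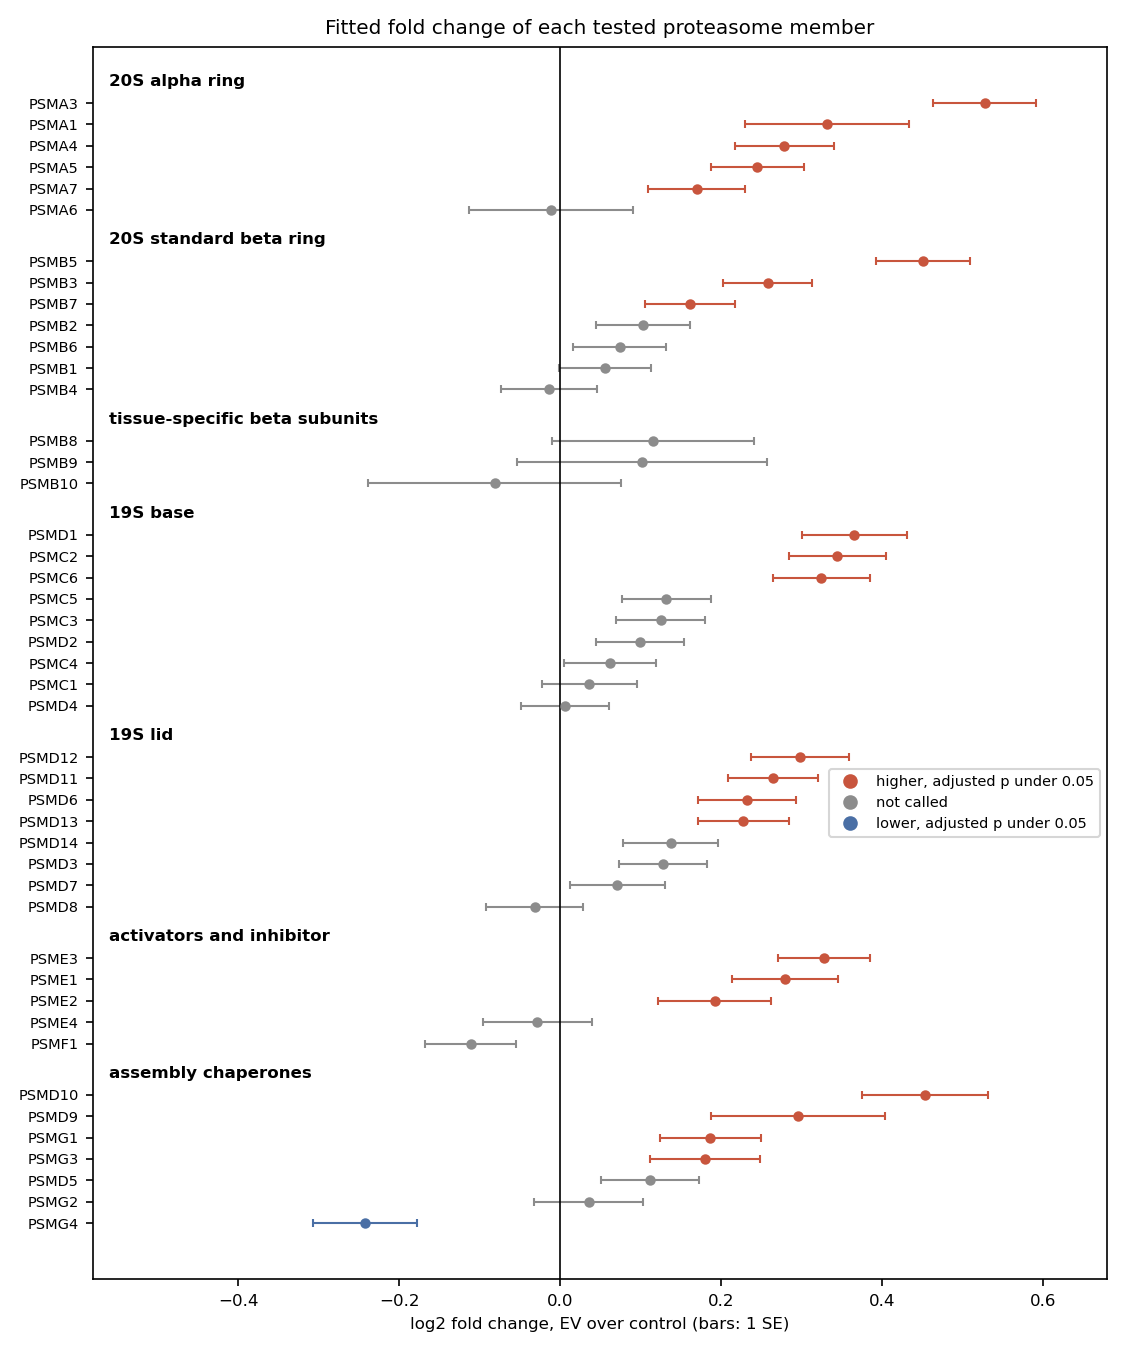
Fitted log2 fold change (EV over control, x axis) of the 45 tested members, ordered by role, with bars of 1 SE. Red points were called higher (22), the blue point lower (PSMG4) and grey points were not called (22). PSMA3 lies farthest right at 0.53 and PSMG4 farthest left at -0.24.

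The alpha ring, whose subunits form the gated entry to the core, had 5 of 6 tested members higher (83.3%, against 20.2% of all tested genes). Its median log2 fold change was 0.26. PSMA3 was at 83.5, 79.8 and 86.8 CPM in the control libraries and at 116, 130 and 115 CPM in the EV-labelled ones. It rose by 0.53 ± 0.06 on the log2 scale (SE; adjusted p = 2.83e-06), the highest fold change of any member, and the groups were well apart. PSMA4 (log2 fold change 0.28 ± 0.06) and PSMA5 (0.25 ± 0.06) also rose with no overlap. PSMA7 was at 347, 359 and 327 CPM against 413, 369 and 380 CPM (0.17 ± 0.06, adjusted p = 0.0298), where EV replicate 1 was the highest and the gap between the groups was narrow. Of 16 alternative settings 4 lost its call, including those without control replicate 1, control replicate 3 or EV replicate 1.

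The other alpha subunits have few counts. PSMA1 was at 10.8, 11.0 and 11.0 CPM against 12.7, 15.6 and 13.1 CPM (0.33 ± 0.10, adjusted p = 0.0137), and without EV replicate 2, its highest library, it was not called. PSMA6 was at 23.5, 26.9 and 19.6 CPM against 25.3, 21.4 and 22.5 CPM (-0.01 ± 0.10), with full overlap. PSMA2 had 7, 7 and 5 counts against 2, 7 and 1, too few to test. These 3 genes share at least 40% of their exon bases with another gene, as described below, so their levels are uncertain.

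In the standard beta ring 3 of 7 subunits rose (42.9%, against 20.2% of all tested genes), 2 of them catalytic. PSMB5, which carries the chymotrypsin-like site targeted by bortezomib, was at 171, 165 and 184 CPM in the controls and at 244, 233 and 234 CPM in the EV-labelled libraries. The rise of 0.45 ± 0.06 (adjusted p = 6.45e-06) left a wide gap between the groups. PSMB7, with the trypsin-like site, was at 295, 310 and 311 CPM against 352, 345 and 328 CPM (0.16 ± 0.06, adjusted p = 0.0273). That call was lost in 5 of 16 settings, among them with the replicate number as a block and without control replicate 1, EV replicate 1 or EV replicate 2. PSMB6, with the caspase-like site, was at 201, 204 and 188 CPM against 215, 200 and 209 CPM and was not called (0.07 ± 0.06, adjusted p = 0.322). Its groups overlapped.

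Of the structural beta subunits, which have no active site, PSMB3 was the 1 called. PSMB3 was at 216, 216 and 211 CPM against 260, 261 and 247 CPM (0.26 ± 0.05, adjusted p = 0.000951), with tight libraries on each side. PSMB1 was at 257, 268 and 261 CPM against 286, 272 and 258 CPM (0.06 ± 0.06), and PSMB4 at 355, 381 and 350 CPM against 378, 360 and 338 CPM (-0.01 ± 0.06). In both, the groups overlapped, as they did for PSMB2 (0.10 ± 0.06).

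The interferon-inducible beta subunits were low in every library and none of the 3 was called. PSMB8, which replaces PSMB5, was at 6.08, 6.51 and 5.72 CPM against 7.32, 6.46 and 6.03 CPM (0.12 ± 0.13, adjusted p = 0.487). PSMB9, which replaces PSMB6, was at 3.47, 4.68 and 4.0 CPM against 4.96, 3.94 and 4.14 CPM (0.10 ± 0.16), and PSMB10, which replaces PSMB7, at 3.68, 4.42 and 3.81 CPM against 4.36, 3.21 and 3.66 CPM (-0.08 ± 0.16). All 3 overlapped between the groups, and their SEs of 0.13 to 0.16 exceeded those of the standard beta subunits. The PSMB8 to PSMB5 ratio of CPM was 3.53% ± 0.415 in the controls and 2.78% ± 0.217 in the EV-labelled libraries (SD, n = 3 each), and the groups did not overlap. An exact two-sided permutation test of its log2 gave p = 0.1 (adjusted p = 0.3 over 3 pairs), the smallest p that 3 against 3 libraries allow. The PSMB10 to PSMB7 ratio (1.30% ± 0.109 against 1.09% ± 0.155, exact permutation p = 0.2) and the PSMB9 to PSMB6 ratio (2.05% ± 0.291 against 2.09% ± 0.192, exact permutation p = 0.9) overlapped.

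**Figure D2:**
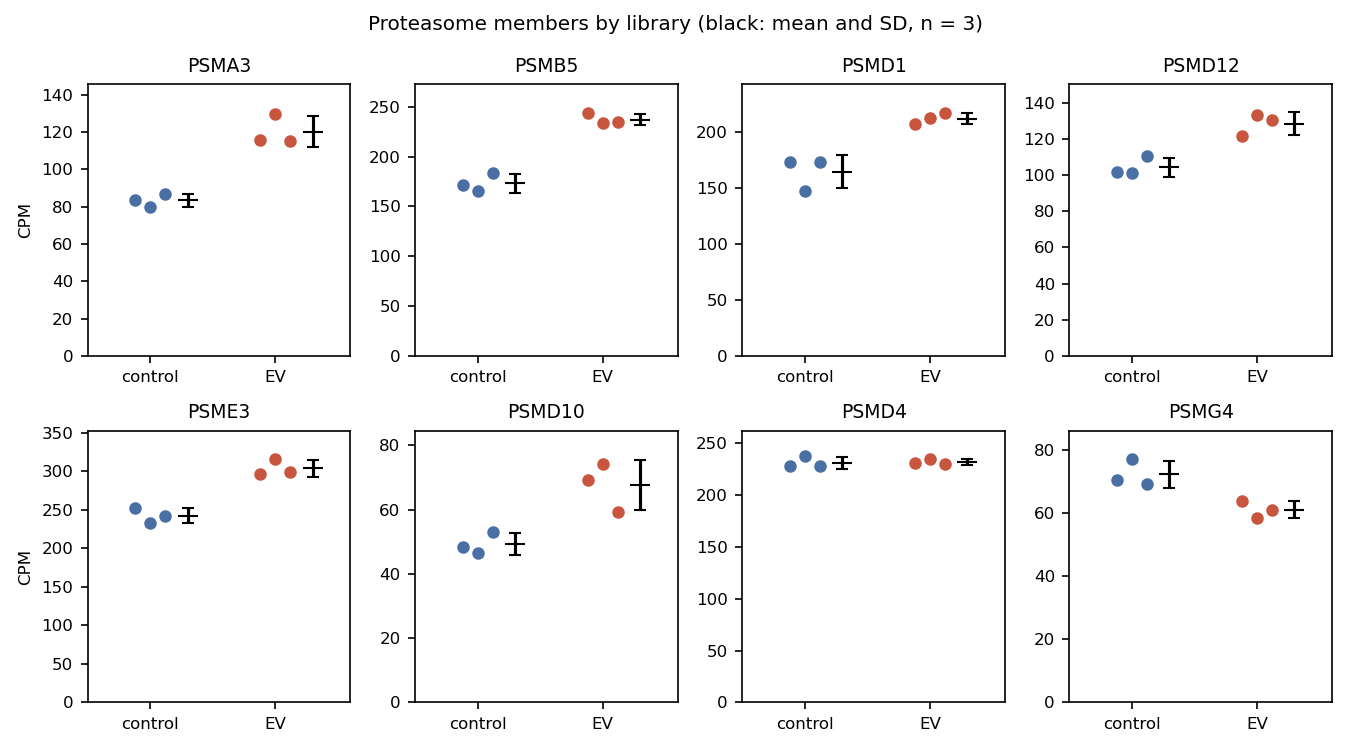
CPM (y axis, from 0) of 8 members in each library, with control libraries in blue, EV-labelled libraries in red and the mean ± SD of 3 in black. PSMA3, PSMB5, PSMD1, PSMD12, PSME3 and PSMD10 do not overlap upward, PSMD4 overlaps, and PSMG4 does not overlap downward.

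All 9 members of the 19S base, which unfolds substrates and threads them into the core, had fitted values above 0 (49% of all genes). Of them 3 were called, all higher (33.3%, against 20.2% of all tested genes). PSMD1, the large scaffold of the base, was at 173, 147 and 173 CPM against 207, 212 and 217 CPM (0.37 ± 0.06, adjusted p = 0.000182), with control replicate 2 the lowest library. PSMC2 was at 138, 129 and 124 CPM against 159, 172 and 166 CPM (0.34 ± 0.06, adjusted p = 0.000156) and PSMC6 was at 0.32 ± 0.06. Both encode ATPases of the unfolding ring, and their groups were apart. The other 4 ATPase genes, PSMC1, PSMC3, PSMC4 and PSMC5, were at 0.04 to 0.13 and were not called, although PSMC3 (adjusted p = 0.0758) and PSMC5 (adjusted p = 0.0616) passed in 3 of 16 other settings. PSMD4, a ubiquitin receptor, was at 227, 237 and 228 CPM against 231, 235 and 229 CPM (0.01 ± 0.05), with overlap. PSMC1 was at 74.7, 77.4 and 72.1 CPM against 77.0, 76.5 and 76.5 CPM (0.04 ± 0.06), so each EV-labelled library lay inside the control range. PSMD2, which receives shuttle proteins, was at 923, 876 and 868 CPM against 935, 954 and 969 CPM and was not called although the groups did not overlap (0.10 ± 0.05, adjusted p = 0.156).

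In the lid, which holds the deubiquitinase, 4 of 8 members rose (50%, against 20.2% of all tested genes). PSMD12, a scaffold subunit, was at 101, 101 and 110 CPM against 122, 133 and 130 CPM (0.30 ± 0.06, adjusted p = 0.000692). PSMD11, a subunit whose phosphorylation is known to stimulate the particle, was at 191, 186 and 184 CPM against 216, 230 and 228 CPM (0.26 ± 0.06, adjusted p = 0.000886). Both were apart in all libraries, as were PSMD6 (0.23 ± 0.06) and PSMD13 (0.23 ± 0.06). PSMD14, the deubiquitinase itself, was 0.14 ± 0.06 and was not called (adjusted p = 0.0713). Its groups were barely apart, with control replicate 3 at 125.7 and EV replicate 3 at 125.9 CPM. PSMD3 did not overlap and was not called either (0.13 ± 0.05, adjusted p = 0.0667). With the GC content and length correction PSMD14 was at 0.04 and PSMD3 at 0.18. PSMD7 was at 100, 103 and 96.9 CPM against 109, 101 and 105 CPM (0.07 ± 0.06), and PSMD8 at 399, 427 and 369 CPM against 398, 391 and 381 CPM (-0.03 ± 0.06). The EV-labelled values of PSMD8 all fell within the wide control range.

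Of the activators and the inhibitor, 3 of 5 rose (60%, against 20.2% of all tested genes). PSME3, the nuclear PA28 gamma activator, was at 252, 232 and 242 CPM against 296, 316 and 299 CPM (0.33 ± 0.06, adjusted p = 0.000154). PSME1, the alpha subunit of the interferon-inducible PA28 cap, was at 52.4, 57.0 and 55.9 CPM against 71.5, 65.4 and 63.7 CPM (0.28 ± 0.07, adjusted p = 0.00218). Its partner PSME2 rose by 0.19 ± 0.07 (adjusted p = 0.0346), but that call was lost in 4 of 16 settings, among them without control replicate 3, EV replicate 1 or EV replicate 2. PSME4, the PA200 activator, was at 97.4, 88.2 and 99.9 CPM against 85.6, 95.7 and 98.8 CPM, overlapping and not called (-0.03 ± 0.07). The ratio of PSME3 to PSME4 was 255% ± 11.2 in the controls and 326% ± 22.1 in the EV-labelled libraries (ratio of CPM, not per length; SD), and the groups did not overlap. For PSME1 to PSME2 the ratio was 106% ± 11.0 against 112% ± 1.21, and the groups overlapped. Neither ratio was tested. PSMF1, known as the inhibitor PI31, was at 166, 168 and 157 CPM against 152, 149 and 153 CPM. All its EV-labelled libraries were below the controls, yet it was not called (-0.11 ± 0.06, adjusted p = 0.121).

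Assembly chaperones held both a large rise and the sole fall. PSMD10, or gankyrin, a chaperone of the base that is also known as an oncoprotein, was at 48.5, 46.4 and 53.1 CPM against 69.3, 74.3 and 59.2 CPM (0.45 ± 0.08, adjusted p = 0.000149). EV replicate 3 was nearest to the controls. PSMD9, another base chaperone, was at 10.7, 9.43 and 8.39 CPM against 11.7, 11.9 and 11.4 CPM (0.30 ± 0.11, adjusted p = 0.0345), and its call was lost in 6 of 16 settings: with DESeq2 and when any library but control replicate 1 was left out. PSMD5, the remaining base chaperone among the members, was not called (0.11 ± 0.06).

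The alpha ring is built on PSMG1 with PSMG2 and on PSMG3 with PSMG4, and the calls differed within each pair. Differences between partners were not tested. PSMG1 rose by 0.19 ± 0.06 (adjusted p = 0.0226), a call lost without control replicate 1 or EV replicate 2. PSMG2 was at 47.4, 52.3 and 50.9 CPM against 54.2, 51.6 and 48.6 CPM (0.04 ± 0.07), with overlap. PSMG4 was at 70.3, 77.2 and 69.0 CPM against 63.7, 58.3 and 60.9 CPM, every EV-labelled library below every control. It fell by 0.24 ± 0.07 on the log2 scale (adjusted p = 0.00568) and was called in all 16 other settings. PSMG3 was at 70.0, 82.2 and 70.6 CPM against 87.0, 85.0 and 80.5 CPM (0.18 ± 0.07, adjusted p = 0.0415). Control replicate 2 of PSMG3 lay above EV replicate 3, making it the 1 called member whose groups overlapped, and the call was lost in 6 of 16 settings. These included upper-quartile scaling and leaving out control replicate 1, control replicate 3, EV replicate 1 or EV replicate 2.

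Summed levels of most roles were higher in the EV-labelled libraries, with the highest ratio in the alpha ring. Differences between roles were not tested. The ratio of the EV-labelled to the control mean of summed CPM was 1.18 for the alpha ring, 1.1 for the standard beta ring, 1.1 for the base, 1.09 for the lid, 1.11 for the activators with PSMF1 and 1.09 for the chaperones. The libraries of the groups did not overlap in any of these sums. For the interferon-inducible subunits the ratio was 1.04 and the libraries overlapped, at 13.2 to 15.6 CPM against 13.6 to 16.6 CPM.

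Levels of different members were compared per kilobase of the main GENCODE v29 transcript. Control means ran from 376 ± 17.2 CPM per kb for PSMB4 and 346 ± 16.1 for PSMA7 down to 0.166 ± 0.0396 for PSMA2 (SD, n = 3), with a median of 52.2 over the 46 members. These 2 highest genes differed by less than the sum of their SDs. Although alpha subunits occur in equal numbers in the particle, PSMA7 was at 346 CPM per kb, PSMA3 at 86.0 and PSMA1 at 7.27. The interferon-inducible PSMB8 and PSMB9 were at 5.43 ± 0.352 and 5.18 ± 0.776 CPM per kb and did not differ beyond their spread, against 134 ± 7.38 for PSMB5 and 232 ± 9.73 for PSMB6.

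Among the lowest members were 5 that share exon sequence with another gene. In GENCODE v29, at least 40% of the main transcript's exon bases are shared with another gene on the same strand for PSMA6 (81.0%), PSMA1 (53.2%), PSMA2 (52.5%), PSMB10 (45.3%) and PSMD9 (43.8%), and under 1% for the other 41. All 5 were among the 10 lowest members per length. The partner of PSMA2, AC010132.3, had 1 count in all libraries together, that of PSMA6, AL121594.1, had 3, and that of PSMB10, AC040162.1, had 17 to 28 per library. The partner of PSMA1, AC018523.2, had no row in the count table. Of the partners of PSMD9, AC069503.2 had no row and WDR66 had 4 to 10 counts per library. The sources used here do not say how reads of shared exons were counted, and the part of such reads in these levels was not tested. Without these genes 20 of 41 tested members were higher and 1 lower, against 20.2% and 20.7% of all tested genes.

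**Figure D3:**
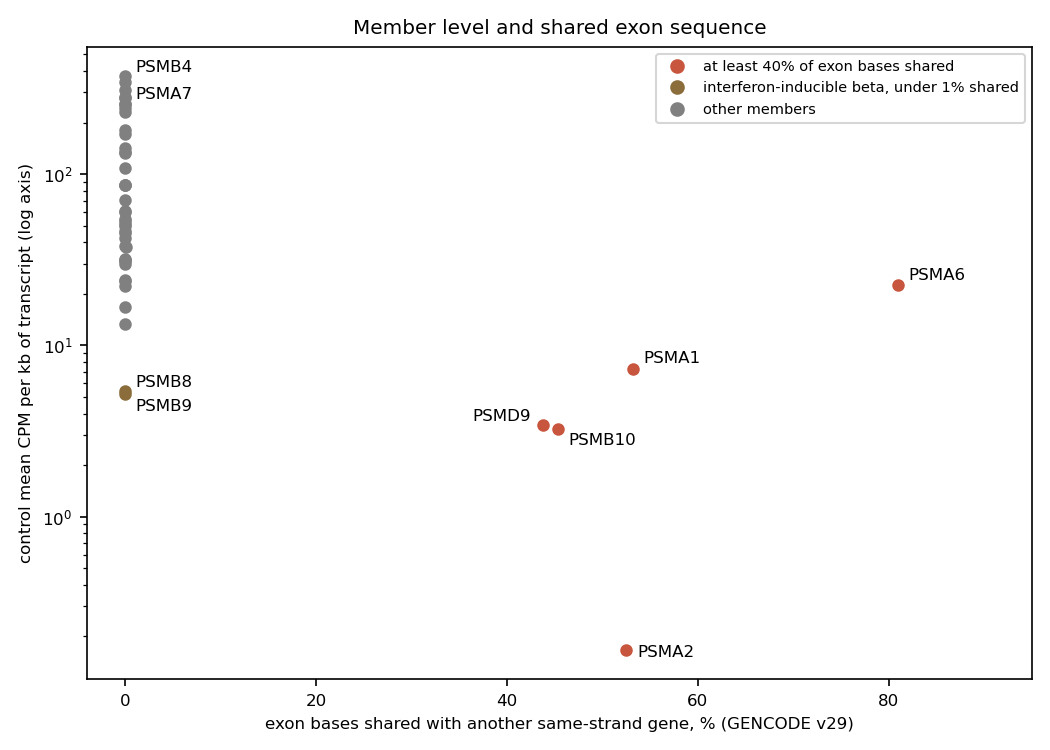
Control mean level per kilobase (y axis, log scale) of the 46 members against the share of exon bases that each shares with another gene on the same strand (x axis, %). The 5 members at 43.8% or more (red) lie between 0.166 and 22.7 CPM per kb, and the interferon-inducible PSMB8 and PSMB9 (brown) near 5 with under 1% shared.

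Other rows are named after members or share bases with them. PSMA6P1, a pseudogene of PSMA6, held 30.8% as many counts as PSMA6 itself and was higher in the EV-labelled libraries, at 7.43, 9.53 and 8.72 CPM against 6.13, 5.01 and 6.60 CPM (0.53 ± 0.13, adjusted p = 0.00349), while PSMA6 was not called, so the pair is uncertain. Pseudogenes of the other tested members held at most 3.61% of their member's counts (PSMC1P1). On the opposite strand, exons of another gene cover 82.1% of PSMC1, 50.4% of PSMD7 and 27.2% of PSMC5, and the sources used here do not say whether strand was used in counting. PSMG3-AS1, named as antisense to PSMG3, was at 22.8, 23.3 and 21.0 CPM against 15.3, 13.2 and 14.0 CPM. It fell by 0.65 ± 0.09 (adjusted p = 1.18e-05), opposite to PSMG3. In GENCODE v29, exons of opposite-strand genes cover 0% of the main PSMG3 transcript, so the 2 rows share no exon bases there. PSMA3-AS1 had a value of the same sign as PSMA3 and was not called (0.28 ± 0.13, adjusted p = 0.0870). These rows were chosen after their values were seen.

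Of 14 proteasome-bound partners outside the rule, 3 were higher and 3 lower (median 0.04). That is 21.4% each way, near the 20.2% higher and 20.7% lower among all tested genes. POMP, the maturation factor of the core, was at 55.3, 55.8 and 54.7 CPM against 69.4, 61.8 and 61.1 CPM (0.22 ± 0.07, adjusted p = 0.0127), and UCHL5, a deubiquitinase of the cap, rose by 0.23 ± 0.07. AKIRIN2, needed for nuclear import of proteasomes, fell by 0.47 ± 0.07 (adjusted p = 1.38e-05), and ECPAS, an adaptor that binds the particle, by 0.34 ± 0.06. Of 14 shuttle factors and VCP adaptors, 2 were higher and 3 lower (14.3% and 21.4%, median 0.08), also near those shares. VCP, the segregase that extracts ubiquitinated proteins (0.24 ± 0.06), and its cofactor NPLOC4 (0.27 ± 0.06) rose, while the VCP-binding UBXN1 fell (-0.42 ± 0.07).

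The NFE2L1 list was mostly lower: 7 of 12 fell and 1, VCP, rose (58.3% and 8.33%, against 20.7% lower and 20.2% higher among all tested genes), with a median of -0.26. NFE2L1, the activator of proteasome genes, was at 321, 341 and 326 CPM in the controls and at 202, 194 and 213 CPM in the EV-labelled libraries (-0.70 ± 0.06, adjusted p = 2.72e-08), far apart and opposite in direction to most members. Its possible partner MAFF (-1.08 ± 0.09), the competing repressor BACH1 (-0.51 ± 0.06) and MAFK (-0.40 ± 0.07) also fell. NFE2L1 is regulated largely at the protein level, by processing and stability, which was not measured. The list shares DDI2 and VCP with the shuttle list.

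Of 11 tested interferon and antigen processing genes, from 12 listed, 5 were higher and 1 lower (45.5% and 9.09%, median 0.28), against 20.2% and 20.7% of all tested genes. The peptide transporter gene TAP1 (0.30 ± 0.07, adjusted p = 0.00291), IRF2 (0.34 ± 0.09) and NLRC5, the activator of MHC class I genes (0.35 ± 0.10), rose. Of the interferon-inducible members, PSME1 (0.28 ± 0.07) and PSME2 (0.19 ± 0.07) were called higher. PSMB8 (0.12 ± 0.13), PSMB9 (0.10 ± 0.16) and PSMB10 (-0.08 ± 0.16) were not called, with wide SEs. Differences of these members from TAP1 were not tested. Among 26 ubiquitin, E1 and E2 genes, 7 were higher and 2 lower (26.9% and 7.69%, median 0.08), the higher share being near that of all genes. They included UBE2N, which builds K63-linked chains (0.47 ± 0.06), UBE2T of the Fanconi pathway (0.55 ± 0.09), UBE2C of mitotic degradation (0.37 ± 0.06) and UBE2H (-0.40 ± 0.06). Differences between lists were not tested.

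**Figure D4:**
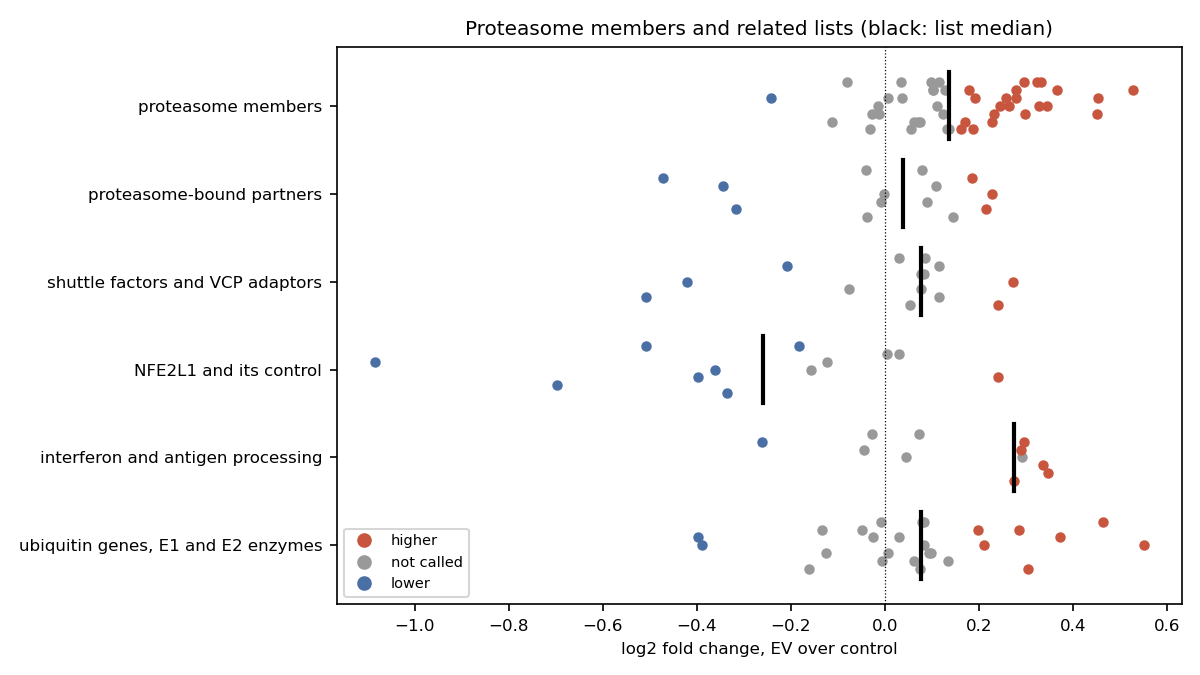
Fitted log2 fold change (x axis, EV over control) of each tested gene in the proteasome set and 5 related lists, with red for higher, blue for lower, grey for not called and a black bar for the median. The proteasome points centre on 0.14 with PSMG4 as the only blue one, while the NFE2L1 list centres on -0.26.

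The authors' deposited table holds all 46 members, of which 23 were higher and 1 was lower with EVs at q under 0.05 once its sign (control over EV) was turned, and 0 marked as up or down. PSMC5 was the 1 member that the authors' deposited table called (q = 0.0492) and edgeR did not. Both rest on the same libraries. The share of all genes under that q in the deposited table is not given here, so its member counts have no background beside them.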

How the data were processed

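Poly(A) RNA counts of 6 libraries, 3 per group, were used. The authors deposited raw counts per gene as whole numbers and their comparison of the groups, with log2 abundances and fold changes and with p-values and q-values. Per the submitters' processing notes, TopHat, RSEM and the hg19 build were used, without versions or roles, and the sources used here do not name the annotation. Of 32453 features, 375 without a gene name (0.0990% to 0.134% of the counts of a library) were left out. All named genes passing filterByExpr (14670) were fitted with edgeR 4.0.16 in R 4.3.3 (quasi-likelihood test, TMM scaling, prior count 0.125, Benjamini-Hochberg adjustment). CPM are counts per library total after TMM scaling. Fold changes are EV-labelled over control, and the SE is the absolute coefficient over the root of the F statistic. A count of 0 allows up to 3 counts, or 0.110 to 0.138 CPM, for counting error only, since PCR copies are not independent molecules. The test was checked on simulated counts.

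Transcript length and exon sharing came from GENCODE v29 (GRCh38) and were matched by gene ID. Per-length levels use the main (APPRIS) transcript. Within each role the 2 highest and 2 lowest fold changes, the catalytic subunits, members not tested and those against the majority are given by library. Of each other list, up to 4 called genes with the lowest adjusted p are named. Some genes under this rule are not reported here. Members and lists were chosen with earlier results of these data known. Labels do not say that replicates were separate cultures, so p-values measure only spread among these libraries, possibly technical. No pair of libraries agreed within sampling noise. Alternatives were other scalings (median-ratio, upper-quartile, library totals), other count filters, DESeq2 1.42.0, limma-voom 3.58.1, a replicate block, stricter thresholds, unnamed loci kept and each library left out. A GC content and length correction, and leaving out members with shared exons, were added after the data were seen.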

Additional observations from a re-analysis of the deposited data

How the results depend on the processing

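With each library left out in turn, 16 to 21 members were higher and 1 lower. Of all tested genes, 15.6% to 18.9% were higher and 16.1% to 18.9% lower, and between 4756 and 5612 genes were called over all. The log2 ratio differences ran from -0.35 to -0.14 for PSMB10 to PSMB7 and from -0.43 to -0.26 for PSMB8 to PSMB5. The PSMB9 to PSMB6 difference, 0.03 with all libraries, ran from -0.09 to 0.12 and turned negative without control replicate 1 (-0.086) and without EV replicate 1 (-0.043), so it has no stable direction. Requiring also a 25% rise, or the equal fold downward, left 8 members higher and 0 lower by edgeR. It left 3846 genes in all (11.5% of tested genes higher and 14.7% lower). With the other scalings, filters and tools, 18 (upper-quartile) to 27 (GC content and length correction) members were higher. In those 2 settings 18.5% and 24.9% of all tested genes were higher. At an adjusted p under 0.01, 15 members were higher, against 13.9% of all tested genes. Of the 22 higher members, 15 were called in all 16 other settings and 7 were lost in at least 1, and 6 of the 22 not called passed in at least 1. The replicate block gave 21 members higher and 1 lower and 5743 genes in all, with 19.4% of tested genes higher and 19.7% lower. Same-numbered libraries deviated from their group means with correlations of -0.04, -0.02 and -0.03. No library correlated best with its own number. Deviations of 3 libraries from their own mean constrain each other, so these weak correlations cannot decide whether the numbers pair the libraries. The highest correlations were control 1 with EV 3 (0.12), control 2 with EV 1 (0.11) and control 3 with EV 2 (0.09). The interferon-inducible subunits, at 3.21 to 7.32 CPM per library, had SEs of 0.13 to 0.16, the highest of the tested members, so differences of that size were not detectable for them.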
